A study of Homo sapiens with 34 samples.

Results

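The genes described here encode enzymes that act on methylated DNA or its oxidised forms and members of a family named for binding it: the dioxygenases TET1, TET2 and TET3, the glycosylases TDG and MBD4, and the methyl-CpG binding domain proteins MBD1, MBD2 and MBD3. They were chosen by name, and every array probe annotated to 1 of the 8 symbols was taken. Of the 8 genes, 6 had a probe listed, 13 probes in all; TET3 and MBD3 had none listed. A probe was kept for testing if it exceeded background on both arrays of at least 1 group, which left 10 probes of 5 members among 20974 probes of 15285 genes. The study measured total RNA of 3 liver carcinoma cell lines, HepG2, SNU398 and SNU475, on 34 Illumina arrays. Cells were either untreated or had received SGI-110, which inhibits DNA methyltransferases, at 100 nM on 3 consecutive days, with 72 h of exposure in all. Treated cells of HepG2 and SNU398 were taken at days 3, 10, 17 and 24, and treated SNU475 at days 3, 10, 17, 24, 31 and 56. Each of the 17 line and day groups holds 2 arrays, and the labels do not say whether these came from separate cultures, so p-values measure the spread between arrays, which may be technical. Untreated cells were measured once per line (labelled day 0), so treatment and time in culture cannot be told apart, and each line is a single cell line.

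TET enzymes oxidise methylcytosine in steps, and TDG cuts the most oxidised forms out of DNA so that base excision repair can put back unmodified cytosine. MBD4 removes the thymine left when methylcytosine loses its amino group, and its methyl-CpG binding domain brings it to such sites. MBD1 and MBD2 bind methylated CpG and recruit histone-modifying repressors, MBD2 as a subunit of the NuRD complex, in which the related MBD3, which in mammals does not bind methylated CpG selectively, can take its place. An inhibitor of DNA methyltransferases lowers the amount of methylated CpG, which TET enzymes oxidise and MBD1 and MBD2 bind.

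The plot of changes shows every kept probe, and promoter sequence from RefSeq (build GRCh38.p14) was found for all 8 members, at 12 transcription starts. Each promoter is 300 bases, from 250 before to 50 after the start. Sequences are shown for MBD4, MBD1 and TET1, the members with the changes described in most detail, and the capitals mark each CG, the dinucleotide at which DNA methyltransferases act. CG was searched as the letters CG, which read the same on both strands, and its count is a description of the letters. The MBD4 window, chr3:129439899-129440198 on the minus strand, holds 29, and 24.2% of 35114 promoters hold as many or more. The MBD1 window, chr18:50281718-50282017 on the minus strand, holds 27, a count that 28.2% of promoters reach. The first TET1 start, chr10:68560087-68560386 on the plus strand, holds 10, a count that 56.4% reach, and its other starts hold 6 and 11. The median over all promoters is 14.
MBD4: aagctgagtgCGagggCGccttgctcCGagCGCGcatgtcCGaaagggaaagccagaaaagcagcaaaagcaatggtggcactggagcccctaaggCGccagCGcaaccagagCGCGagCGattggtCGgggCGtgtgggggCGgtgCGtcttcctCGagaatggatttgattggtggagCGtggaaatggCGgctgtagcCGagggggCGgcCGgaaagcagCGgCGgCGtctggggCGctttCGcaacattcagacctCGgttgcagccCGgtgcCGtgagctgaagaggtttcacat
MBD1: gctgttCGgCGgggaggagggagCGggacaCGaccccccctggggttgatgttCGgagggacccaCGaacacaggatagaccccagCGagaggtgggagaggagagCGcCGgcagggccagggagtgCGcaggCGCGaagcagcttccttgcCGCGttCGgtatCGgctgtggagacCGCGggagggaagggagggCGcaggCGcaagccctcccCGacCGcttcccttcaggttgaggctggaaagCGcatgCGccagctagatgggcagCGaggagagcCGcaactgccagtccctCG
TET1: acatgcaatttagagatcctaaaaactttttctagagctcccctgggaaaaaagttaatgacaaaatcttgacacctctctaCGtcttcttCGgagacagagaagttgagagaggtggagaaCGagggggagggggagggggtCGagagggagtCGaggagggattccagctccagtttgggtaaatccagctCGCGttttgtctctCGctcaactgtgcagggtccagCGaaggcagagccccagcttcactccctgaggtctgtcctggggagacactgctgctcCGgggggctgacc
Among the other members the TDG window holds 22, that of MBD2 32, that of MBD3 40, those of TET2 13 and 35, and those of TET3 45 and 33. Promoter methylation was not analysed here.

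Levels are given below as background-corrected, quantile normalized log2 intensities, in which background ended at 6.98, and a change is a difference of group means on that scale with its standard error (SE) from limma's fit over all probes. A probe was called at a Benjamini-Hochberg adjusted p under 0.05, taken over all tested probes of the comparison. Levels of different probes are not compared. Replicate arrays correlated with Pearson's r from 0.9906 to 0.9947 across the tested probes. The deposited arrays fall into 3 sets with nearly equal medians: HepG2 with untreated SNU398, treated SNU398 with untreated and day 3 SNU475, and SNU475 from day 10 on. SNU398 against untreated, and SNU475 from day 10 on against untreated, therefore cross sets, and set and treatment cannot be told apart there. Untreated SNU475 also lies in another set than untreated HepG2 and SNU398, so line and set cannot be told apart in its differences from them. HepG2, adjacent SNU398 days, adjacent SNU475 days from day 10, SNU475 at day 3 against untreated, and untreated SNU398 against untreated HepG2 lie within a set. All 8 hepatocyte markers were above background in untreated HepG2, but 3 of 8 in untreated SNU398 and 4 of 8 in untreated SNU475. Of 5 blood cell markers, PTPRC and CD3E were not above background in any group, whereas LYZ, which codes for lysozyme, stood at 15.12 in untreated HepG2 and above background in all HepG2 groups. CD2 was also above background in untreated HepG2 (7.74) and in SNU475 at day 31 (7.01) and day 56 (7.74), and HBB (7.28) in untreated SNU398. All 3 endothelial markers were not above background in untreated cells of any line, but VWF was above it in every treated HepG2 group, at 7.46, 8.51, 8.01 and 7.69 by day, and PECAM1 at days 17 and 24. PECAM1 (7.11) was also above background in SNU475 at day 31. The part of VWF, PECAM1 and CD2 in the changes of the members was not tested.

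**Figure D1:**
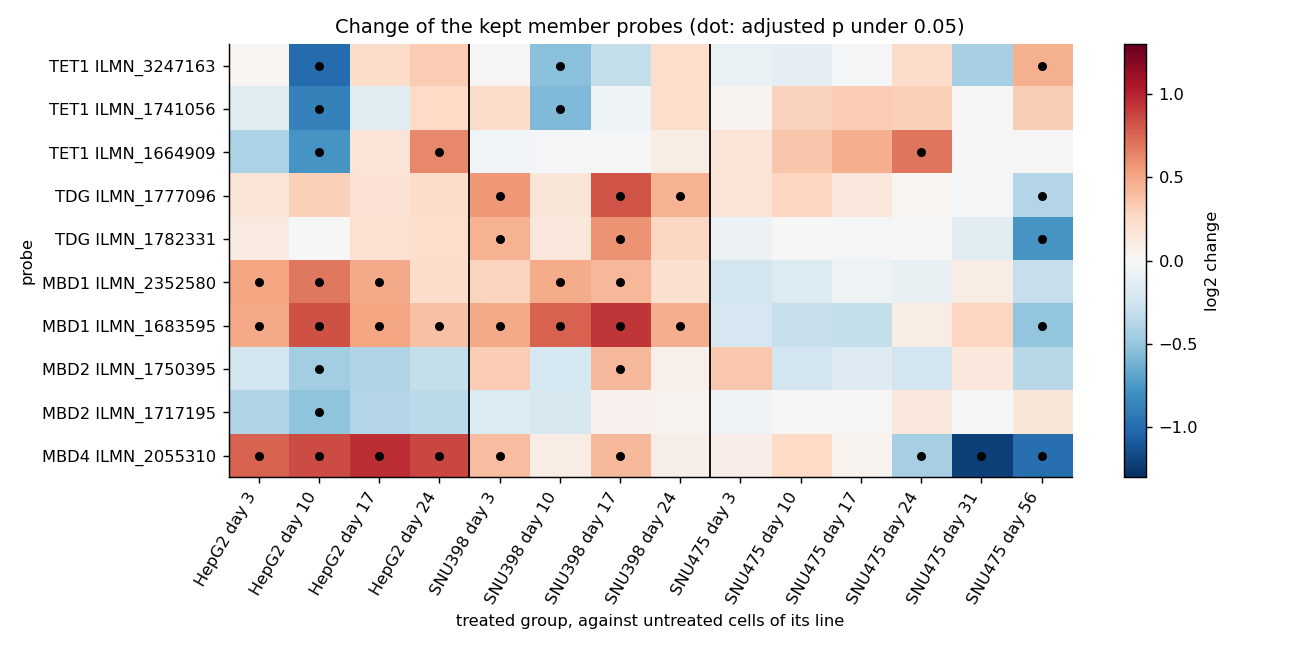
Log2 change of each of the 10 kept member probes (vertical axis) on each treated day against untreated cells of its line (horizontal axis), by colour from lower (blue) to higher (red), with a dot where the adjusted p was under 0.05 (2 arrays a group). MBD4 and MBD1 are red across HepG2, and MBD4 is blue in SNU475 at days 24, 31 and 56.

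The number of member probes called varied by line. In HepG2, 3 of 10 probes passed at day 3, where 13.3% of all tested probes did, 8 at day 10 (31% of all), 3 at day 17 (24.3%) and 3 at day 24 (24.2%). In SNU398, 4 of 10 passed at day 3 (30.9% of all), 4 at day 10 (32.4%), 6 at day 17 (31.6%) and 2 at day 24 (17.9%). In SNU475, none of the 10 passed at day 3 (3.19% of all), day 10 (18.2%) or day 17 (12.7%), 2 passed at day 24 (31.4%), 1 at day 31 (12.8%) and 5 at day 56 (45.3%). Among these treated days, the counts at HepG2 day 10 and SNU398 day 17 exceeded the share of all probes by the most percentage points, and probes of 1 gene are not independent. Between adjacent days of HepG2, 2 probes passed from day 3 to 10 (26.2% of all), 3 from day 10 to 17 (24.6%) and none from day 17 to 24 (7.55%). In SNU398 the same steps gave 4 (31.6%), 3 (25.2%) and 2 (9.09%). In SNU475, none passed from day 10 to 17 (0.472%), 1 from day 17 to 24 (11.8%), 3 from day 24 to 31 (27.3%) and 6 from day 31 to 56 (42.9%). Between untreated lines, 6 of 10 passed for SNU398 against HepG2 (56.5% of all), 9 for SNU475 against HepG2 (56.8%) and 8 for SNU475 against SNU398 (58.5%). In every called comparison between a pair of groups, the 2 arrays of one group did not overlap with the 2 of the other. This was not counted over all called probes, so it describes the arrays and adds no support to the calls.

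**Figure D2:**
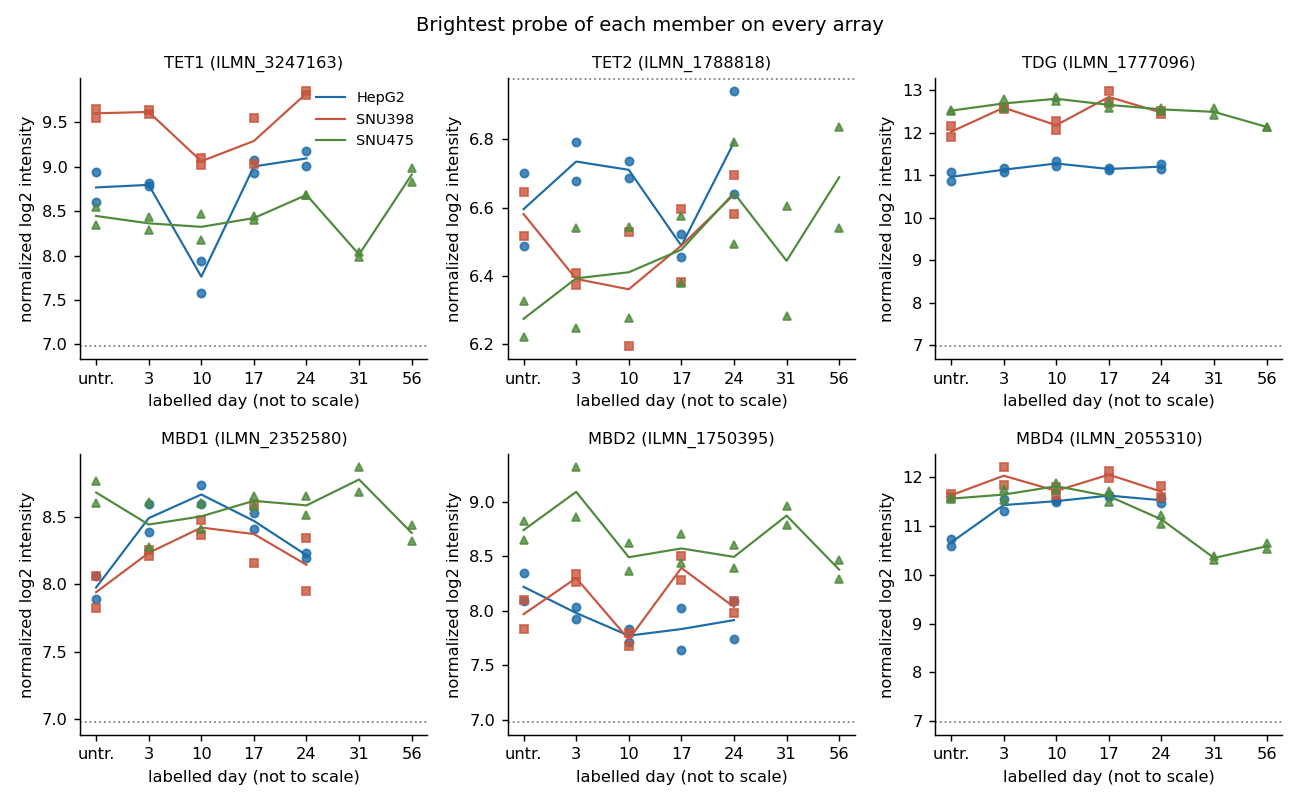
Normalized log2 intensity (vertical axis, its range differing between panels) of the brightest probe of each member with a probe on every array, against the labelled day (horizontal axis, not to scale, untr. for untreated). Points are arrays, lines join group means, and the dotted line is the end of background at 6.98, below which every TET2 value lies.

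TET1 was the only dioxygenase of the family with a probe above background. All 3 of its probes were lower in HepG2 at day 10 than in untreated cells, and 2 of the 3 were lower in SNU398 at day 10. No TET1 probe passed against untreated at day 17 in HepG2 or at day 10 in SNU475. On ILMN_3247163, the brightest TET1 probe, the 2 HepG2 arrays read 8.60 and 8.94 untreated, 8.81 and 8.78 at day 3, 7.94 and 7.58 at day 10, 8.93 and 9.07 at day 17 and 9.18 and 9.01 at day 24. The day 10 arrays of HepG2 were the lowest of all its arrays and overlapped with no other HepG2 group. The change at day 10 was -1.004 ± 0.15 (adjusted p 4.74e-06), a 2.01-fold lower level, and it was -0.88 ± 0.16 (6.53e-05) on ILMN_1741056 and -0.77 ± 0.20 (0.00356) on ILMN_1664909. The last of these lost its call without untreated replicate 1 of HepG2 (adjusted p 0.087). From day 10 to day 17, TET1 rose by 1.24 ± 0.15 (2.03e-07), 0.75 ± 0.16 (0.000642) and 0.95 ± 0.20 (0.000584) on the 3 probes in that order. The middle one did not pass without day 10 replicate 2 (0.0622), nor did its fall from day 3 to day 10 of -0.72 ± 0.16 (0.0779). On ILMN_3247163 that fall was -1.03 ± 0.15 (3.8e-06). ILMN_1664909 was also higher than untreated at day 24, by 0.62 ± 0.20 (0.0219), a call lost without untreated replicate 2 or either day 24 array (adjusted p up to 0.241).

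In SNU398, ILMN_3247163 of TET1 read 9.55 and 9.65 untreated, 9.64 and 9.59 at day 3, 9.10 and 9.02 at day 10, 9.03 and 9.55 at day 17 and 9.85 and 9.80 at day 24. Both day 10 arrays were below all untreated and day 3 arrays. Their change was -0.54 ± 0.15 (adjusted p 0.00599), and it was -0.58 ± 0.16 (0.00526) on ILMN_1741056 and -0.03 ± 0.20 (0.93) on ILMN_1664909. With each array scaled to a common median, neither probe passed (0.0763 and 0.0504), and the first did not pass without untreated replicate 2 (0.0584). Within the set of treated SNU398 arrays, the fall from day 3 to day 10 was -0.55 ± 0.15 (0.00502) on ILMN_3247163 and -0.82 ± 0.16 (0.000179) on ILMN_1741056. From day 10 to 17, ILMN_1741056 rose by 0.53 ± 0.16 (0.0135), which did not pass without any 1 of the 4 arrays (up to 0.0744), and ILMN_3247163 rose from day 17 to 24 by 0.54 ± 0.15 (0.0214), which did not pass without day 17 replicate 1 or either day 24 array (up to 0.406).

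In SNU475, ILMN_3247163 of TET1 read 8.35 and 8.54 untreated, 8.29 and 8.44 at day 3, 8.47 and 8.18 at day 10, 8.44 and 8.40 at day 17, 8.68 and 8.68 at day 24, 7.99 and 8.04 at day 31 and 8.83 and 8.99 at day 56. The day 31 arrays were the lowest of the line and the day 56 arrays the highest, and neither pair overlapped with another group. TET1 fell from day 24 to day 31 by 0.67 ± 0.15 (adjusted p 0.00114) and rose from day 31 to day 56 by 0.90 ± 0.15 (1.38e-05). The other TET1 probes did not move alike over the same steps. ILMN_1741056 changed by -0.29 ± 0.16 (0.184) and 0.31 ± 0.16 (0.121), neither past the threshold, and ILMN_1664909 by -0.69 ± 0.20 (0.00952) and 0.01 ± 0.20 (0.974). The former of those on ILMN_1664909 did not pass without day 24 replicate 1 or day 31 replicate 2 (up to 0.083). Against untreated cells, ILMN_3247163 at day 31 was -0.43 ± 0.15 (0.0546) and at day 56 0.47 ± 0.15 (0.0119), the latter lost as deposited, with median scaling, and without untreated replicate 1 or day 56 replicate 2 (up to 0.327 and 0.123). ILMN_1664909 was higher than untreated at day 24 by 0.70 ± 0.20 (0.00769), lost without untreated replicate 1 or day 24 replicate 1 (up to 0.0766).

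Markers of dividing cells moved beside TET1 in some groups and not in others. In HepG2 at day 10, all 12 markers were lower, by a median of -2.47, and their summed intensity ran from 8003 to 8344 against 43272 to 43853 in untreated cells. In SNU398 at day 10, 11 of 12 were lower, the median change over the 12 was -1.34 and the sums ran from 21034 to 21645 against 55594 to 58352. In SNU475 at day 10, all 12 were lower, with a median of -1.01 and sums of 20174 to 21036 against 38092 to 40102, while the 3 TET1 probes there read -0.12 ± 0.15, 0.30 ± 0.16 and 0.36 ± 0.20, none called. When TET1 fell on 2 of 3 probes from day 24 to day 31 in SNU475, all 12 markers were higher. The part of these markers in the TET1 values was not tested, and in bulk RNA fewer cells of a kind and less RNA per cell cannot be told apart.

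**Figure D3:**
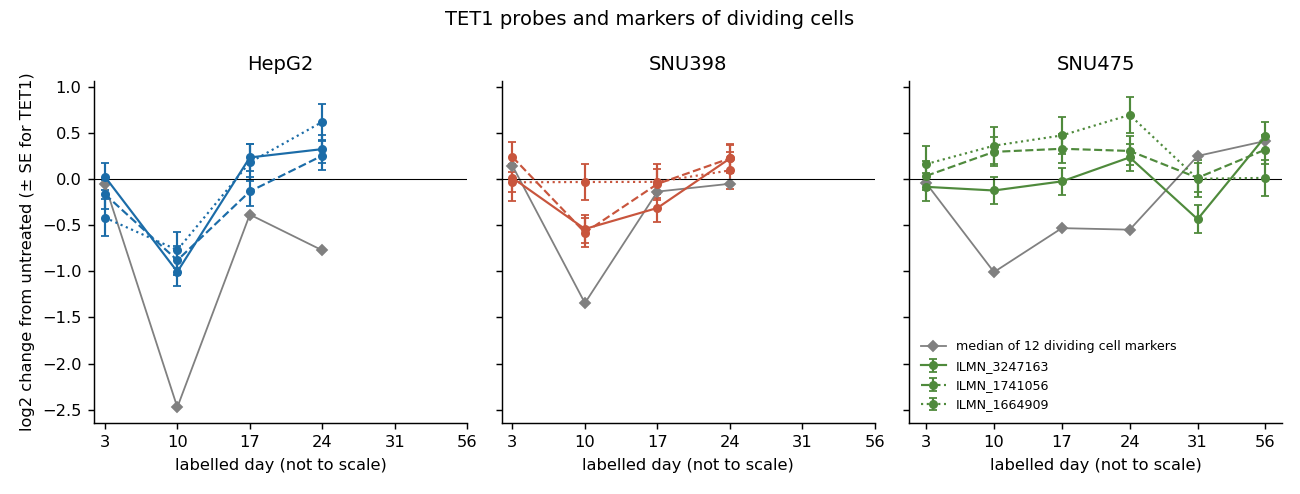
Log2 change against untreated cells (vertical axis) by labelled day (horizontal axis, not to scale) of the 3 TET1 probes, with SE bars, and the median change of 12 dividing cell markers (grey), in 1 panel per line. In HepG2 both dip at day 10, and in SNU398 both do except TET1 probe ILMN_1664909. In SNU475 the markers dip at day 10 with TET1 near 0 or above it.

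TET2, which is often mutated in blood cancers, had 1 probe, ILMN_1788818, and it was above background in 0 of 17 groups. Its arrays ran from 6.19 to 6.94, all below the end of background at 6.98, so no change of TET2 was read.

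TDG, the glycosylase that removes oxidised methylcytosine, was higher in SNU398 at days 3, 17 and 24 and did not pass in HepG2 on any day. On ILMN_1777096, its brightest probe, SNU398 read 12.15 and 11.89 untreated, 12.61 and 12.56 at day 3, 12.07 and 12.28 at day 10, 12.70 and 12.97 at day 17 and 12.43 and 12.51 at day 24. The untreated and day 10 arrays overlapped and the other days lay above untreated. The changes were 0.57 ± 0.13 at day 3 (adjusted p 0.000864), 0.16 ± 0.13 at day 10 (0.377), 0.82 ± 0.13 at day 17 (8.62e-06) and 0.45 ± 0.13 at day 24 (0.0118), the last lost without untreated replicate 2 or day 24 replicate 2 (up to 0.194). On ILMN_1782331 TDG was higher by 0.45 ± 0.18 at day 3 (0.0494) and 0.59 ± 0.18 at day 17 (0.0107). Of these, day 3 did not pass without untreated replicate 1 or either day 3 array (up to 0.464), nor with the replicate block or without a filter on dim probes (up to 0.0722), and day 17 did not pass without untreated replicate 1 or day 17 replicate 1 (0.215). From day 10 to day 17, within a set, ILMN_1777096 rose by 0.66 ± 0.13 (0.000188). Its fall from day 3 to day 10, -0.41 ± 0.13 (0.0123), did not pass without day 3 replicate 1 or day 10 replicate 1 (up to 0.163).

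In HepG2, ILMN_1777096 of TDG read 10.85 and 11.07 untreated, 11.08 and 11.17 at day 3, 11.33 and 11.22 at day 10, 11.12 and 11.17 at day 17 and 11.26 and 11.14 at day 24. The largest change there was 0.31 ± 0.13 at day 10 (adjusted p 0.0574). In SNU475 it read 12.50 and 12.53 untreated, 12.78 and 12.58 at day 3, 12.85 and 12.74 at day 10, 12.58 and 12.72 at day 17, 12.50 and 12.59 at day 24, 12.40 and 12.57 at day 31 and 12.14 and 12.12 at day 56. The day 56 arrays were the lowest of the line. TDG was lower at day 56 than untreated by -0.38 ± 0.13 (0.0134) on this probe, a call lost without untreated replicate 2 or day 56 replicate 2 (0.0631), and by -0.77 ± 0.18 (0.000586) on ILMN_1782331. From day 31 to day 56, within a set, the same probes fell by 0.35 ± 0.13 (0.0229) and 0.64 ± 0.18 (0.00376), the former lost without day 31 replicate 2 or either day 56 array (up to 0.183). Untreated TDG was lowest in HepG2 on both probes, by 1.06 ± 0.13 (2.04e-08) against SNU398 and 1.56 ± 0.13 (7.06e-12) against SNU475 on ILMN_1777096.

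MBD4 was higher on every treated day in HepG2 and lower at the last 3 time points in SNU475. MBD4, whose promoter is shown above, is measured by 1 probe, ILMN_2055310. In HepG2 its arrays read 10.60 and 10.73 untreated, 11.56 and 11.30 at day 3, 11.54 and 11.49 at day 10, 11.65 and 11.61 at day 17 and 11.48 and 11.58 at day 24. Every treated array lay above both untreated arrays, and no step between adjacent days passed. The changes were 0.77 at day 3 (adjusted p 0.000164), 0.85 at day 10 (1.19e-05), 0.96 at day 17 (2.58e-06) and 0.87 at day 24 (1.43e-05), each ± 0.13, which is 1.70 to 1.95-fold higher. All 4 calls held when any 1 array of the groups compared was left out, with an adjusted p of at most 0.0113.

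In SNU398 the MBD4 arrays read 11.66 and 11.60 untreated, 12.22 and 11.85 at day 3, 11.64 and 11.81 at day 10, 11.98 and 12.13 at day 17 and 11.60 and 11.82 at day 24. Days 10 and 24 overlapped with untreated, and days 3 and 17 lay above it, by 0.40 ± 0.13 (adjusted p 0.0233) and 0.42 ± 0.13 (0.0162). The day 3 call was lost without either untreated array or day 3 replicate 1 (up to 0.343) and with each line fitted on its own (0.0578), and the day 17 call without untreated replicate 2 or day 17 replicate 2 (up to 0.136). In SNU475 the arrays read 11.55 and 11.58 untreated, 11.53 and 11.77 at day 3, 11.75 and 11.89 at day 10, 11.50 and 11.73 at day 17, 11.23 and 11.04 at day 24, 10.30 and 10.39 at day 31 and 10.52 and 10.65 at day 56. The arrays from day 24 on all lay below the untreated ones, and days 31 and 56 overlapped with no earlier day. The changes were -0.43 ± 0.13 at day 24 (0.0155), -1.22 ± 0.13 at day 31 (8.98e-08, 2.33-fold lower) and -0.98 ± 0.13 at day 56 (6.47e-07). The call at day 24 was lost without either untreated array or day 24 replicate 2 (up to 0.157), and those at days 31 and 56 held without any 1 array. Within 1 array set, MBD4 fell from day 17 to 24 by 0.48 ± 0.13 (0.0189), lost without day 17 replicate 2 or day 24 replicate 2 (up to 0.217), and from day 24 to 31 by 0.79 ± 0.13 (5.41e-05).

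The mean MBD4 change over days 3, 10, 17 and 24 differed between lines. It was 0.86 in HepG2, 0.25 in SNU398 and -0.01 in SNU475. The difference was -0.61 ± 0.15 for SNU398 minus HepG2 (adjusted p 0.00215, where 2 of 10 member probes and 33.5% of all probes passed) and -0.87 ± 0.15 for SNU475 minus HepG2 (6.89e-05, where 3 of 10 and 23% passed). For SNU475 minus SNU398 it was -0.26 ± 0.15 (0.198), and 2 of 10 member probes passed there against 33.4% of all. Untreated MBD4 was 0.97 ± 0.13 lower in HepG2 than in SNU398 (3.84e-07) and 0.90 ± 0.13 lower than in SNU475 (1.33e-06), and the treated HepG2 means of 11.43 to 11.63 stand beside untreated means of 11.63 in SNU398 and 11.56 in SNU475.

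**Figure D4:**
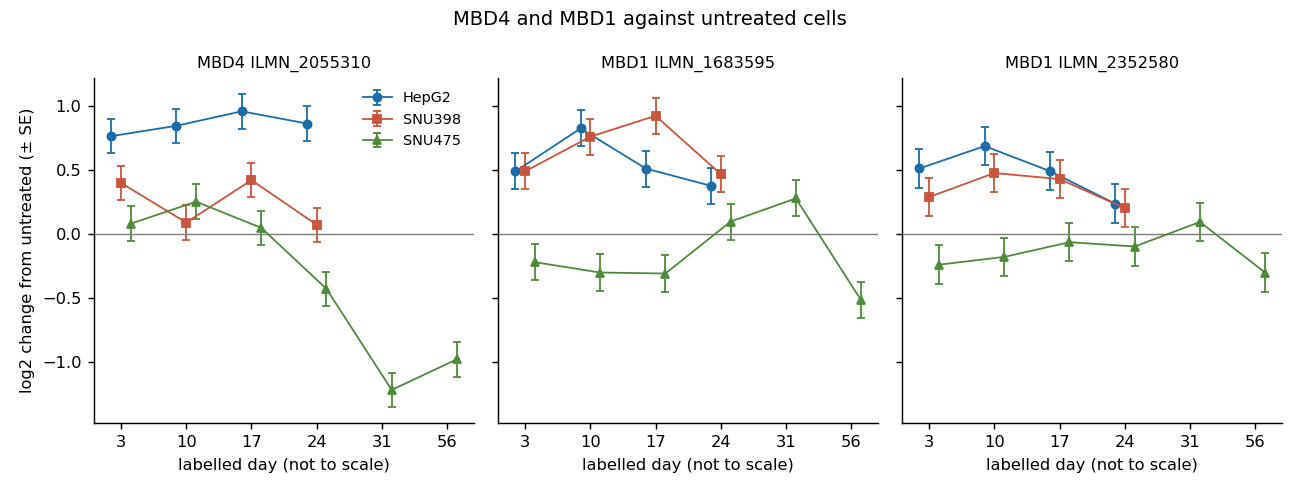
Log2 change against untreated cells with its SE (vertical axis) by labelled day (horizontal axis, not to scale) for the MBD4 probe and both MBD1 probes, 1 symbol and colour per line. MBD4 in HepG2 stays between 0.77 and 0.96, and in SNU475 reaches -1.22 at day 31, while both MBD1 probes lie above 0 in HepG2 and SNU398.

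MBD1, a repressor that binds methylated CpG, was higher after treatment in HepG2 and SNU398. In HepG2, ILMN_1683595 read 7.43 and 7.38 untreated, 7.77 and 8.03 at day 3, 8.39 and 8.08 at day 10, 7.99 and 7.85 at day 17 and 7.89 and 7.68 at day 24. Every treated array lay above the untreated ones, and the changes were 0.49 at day 3 (adjusted p 0.0185), 0.83 at day 10 (3.23e-05), 0.51 at day 17 (0.00722) and 0.38 at day 24 (0.0499), each ± 0.14. The brighter probe ILMN_2352580 read 8.06 and 7.89 untreated, 8.60 and 8.39 at day 3, 8.60 and 8.74 at day 10, 8.53 and 8.41 at day 17 and 8.20 and 8.23 at day 24. Its changes were 0.51 (0.0207), 0.69 (0.000654), 0.49 (0.0152) and 0.24 (0.275), each ± 0.15. The day 10 calls held without any 1 array on both probes. At day 3 the first probe lost its call without either untreated array or day 3 replicate 2 (up to 0.192) and with each line fitted on its own (0.0641), and the second without untreated replicate 2 or day 3 replicate 1 (0.188). At day 17 both lost it without untreated replicate 2 or day 17 replicate 1 (up to 0.0818 and 0.129), and the day 24 call of ILMN_1683595 was lost without any 1 of the 4 arrays and in 5 of the other settings (up to 0.316).

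In SNU398, ILMN_1683595 of MBD1 read 7.40 and 7.09 untreated, 7.70 and 7.76 at day 3, 8.14 and 7.87 at day 10, 8.24 and 8.09 at day 17 and 7.81 and 7.61 at day 24. Each treated day lay above untreated, by 0.49 (adjusted p 0.00809), 0.76 (9.46e-05), 0.93 (7.86e-06) and 0.47 (0.0196), each ± 0.14. The calls at days 10 and 17 held without any 1 array, the day 3 call was lost without untreated replicate 2 (0.16), and the day 24 call without untreated replicate 2 or day 24 replicate 1 (up to 0.267). ILMN_2352580 read 8.06 and 7.82 untreated, 8.26 and 8.21 at day 3, 8.48 and 8.37 at day 10, 8.59 and 8.16 at day 17 and 8.34 and 7.95 at day 24. It passed at day 10 with 0.48 ± 0.15 (0.0143) and at day 17 with 0.43 ± 0.15 (0.028). The first was lost without untreated replicate 2 or day 10 replicate 1 (up to 0.164), the second without untreated replicate 2 or day 17 replicate 1 (up to 0.406) and with each line fitted on its own (0.0665). From day 17 to day 24, within a set, ILMN_1683595 fell by 0.46 ± 0.14 (0.0387), lost without any 1 of the 4 arrays (up to 0.286).

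In SNU475, ILMN_1683595 of MBD1 read 8.32 and 8.33 untreated, 8.11 and 8.11 at day 3, 8.03 and 8.03 at day 10, 8.10 and 7.94 at day 17, 8.43 and 8.42 at day 24, 8.79 and 8.43 at day 31 and 7.85 and 7.77 at day 56. The day 56 arrays were the lowest, -0.51 ± 0.14 from untreated (adjusted p 0.00352) and -0.80 ± 0.14 from day 31 (3.28e-05), both called without any 1 array. ILMN_2352580 read 8.76 and 8.60 untreated, 8.61 and 8.28 at day 3, 8.41 and 8.60 at day 10, 8.66 and 8.58 at day 17, 8.66 and 8.52 at day 24, 8.68 and 8.87 at day 31 and 8.33 and 8.44 at day 56. It was -0.30 ± 0.15 from untreated at day 56 (0.107) and -0.40 ± 0.15 from day 31 (0.0335), the latter lost without day 31 replicate 2 or either day 56 array (up to 0.218) and without a filter on dim probes (0.0527). Untreated SNU475 was above untreated HepG2 by 0.92 ± 0.14 (1.94e-06) and 0.70 ± 0.15 (0.000189) on the 2 probes in that order. The mean change over days 3 to 24 was -0.18 in SNU475, 0.55 in HepG2 and 0.66 in SNU398 on ILMN_1683595, and SNU475 differed from HepG2 by -0.73 ± 0.16 (0.000874) and from SNU398 by -0.84 ± 0.16 (0.000118).

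MBD2, the methyl-CpG binding subunit of NuRD, had 4 probes, and 2 of them were above background in 0 of 17 groups. On ILMN_1750395 HepG2 read 8.35 and 8.09 untreated, 8.04 and 7.93 at day 3, 7.71 and 7.83 at day 10, 7.64 and 8.03 at day 17 and 7.74 and 8.09 at day 24. The arrays of days 3, 10 and 17 lay below both untreated arrays, day 24 overlapped with them, and only day 10 passed, at -0.45 ± 0.16 (adjusted p 0.0364) here and at -0.53 ± 0.15 (0.00606) on ILMN_1717195. The first of these calls was lost without untreated replicate 1 or either day 10 array (up to 0.279), without a filter on dim probes and with each line fitted on its own (up to 0.069). The second was lost without untreated replicate 2 (0.0796). In SNU398 ILMN_1750395 read 8.10 and 7.84 untreated, 8.34 and 8.27 at day 3, 7.80 and 7.68 at day 10, 8.50 and 8.29 at day 17 and 8.09 and 7.98 at day 24. Day 17 was higher by 0.43 ± 0.16 (0.0472), lost without untreated replicate 2 or either day 17 array (up to 0.324) and without a filter on dim probes (0.0713). Within the treated set MBD2 fell from day 3 to 10 by 0.56 ± 0.16 (0.00874) and rose from day 10 to 17 by 0.66 ± 0.16 (0.0032). The fall was lost without day 3 replicate 1 or day 10 replicate 2 (up to 0.0707) and the rise without day 17 replicate 1 (0.0574).

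In SNU475, ILMN_1750395 of MBD2 read 8.65 and 8.83 untreated, 9.32 and 8.86 at day 3, 8.37 and 8.62 at day 10, 8.44 and 8.71 at day 17, 8.60 and 8.39 at day 24, 8.96 and 8.79 at day 31 and 8.46 and 8.29 at day 56. No day passed against untreated, and the step from day 31 to day 56 was -0.50 ± 0.16 (adjusted p 0.0149), lost without day 31 replicate 1 or day 56 replicate 2 (up to 0.121). ILMN_1717195 was above background in 8 of 17 groups, all 5 of HepG2 and 3 of SNU398, and in none of SNU475. The 2 MBD2 probes disagreed between lines. In untreated cells ILMN_1750395 was 0.52 ± 0.16 higher in SNU475 than in HepG2 (0.00755), and ILMN_1717195 was at least 1.77-fold lower in SNU475 (2.96e-06), where it was not above background. The higher level was lost without untreated HepG2 replicate 2 or SNU475 replicate 2 (up to 0.102). Over the 17 group means the MBD1 pair correlated with r = 0.92, the TDG pair with 0.976 and the 3 pairs of TET1 probes with 0.836 to 0.928, as a description. No r is given for the MBD2 pair because ILMN_1717195 was not above background in 9 of the 17 groups. These r values include level differences between lines. Of 14 changes against untreated, the sign matched in 13 for the MBD1 pair and 11 for the TDG pair. For TET1 it matched in 8 for ILMN_3247163 with either other probe, and in 12 for those 2.

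Untreated TET1 differed between the lines. All 3 probes were lower in SNU475 than in SNU398, by -1.16 ± 0.15 (adjusted p 1.03e-07), -0.88 ± 0.16 (1.94e-05) and -1.43 ± 0.20 (3.59e-07). Against HepG2, SNU475 was lower on ILMN_1741056 (-0.57 ± 0.16, 0.00288) and ILMN_1664909 (-0.94 ± 0.20, 0.000171), and ILMN_3247163 read -0.32 ± 0.15 (0.069). Ordered by mean level on the brightest probe, TET1 was highest in SNU398 at day 24 and lowest in HepG2 at day 10, MBD4 highest in SNU398 at day 17 and lowest in SNU475 at day 31, and TDG highest in SNU398 at day 17 and lowest in untreated HepG2. MBD1 was highest in SNU475 at day 31 and lowest in untreated SNU398, and MBD2 highest in SNU475 at day 3 and lowest in SNU398 at day 10. Of the 16 neighbours in these orders, the arrays of 16 overlapped for MBD1, 15 for MBD2, 13 for MBD4, 13 for TDG and 11 for TET1, so few neighbouring levels were separated. Such overlaps were not counted over all probes, so these counts are not read as a trait of the members.

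Genes of the same pathways were counted on the brightest kept probe of each. Of the 17 base excision repair genes, which act after TDG and MBD4 have cut, 1 was higher and 7 were lower in HepG2 at day 10, which is 47.1% called against 31% of all probes (median -0.32, against 0.00). The sliding clamp PCNA was among them (-1.48 ± 0.13), as was the glycosylase NEIL3, at least 2.60-fold lower (adjusted p 2.84e-12) since it was not above background at day 10. In SNU398 at day 10, 2 were higher and 9 lower, 64.7% against 32.4% of all (median -0.42), with NEIL3 at -1.67 ± 0.12 and the ligase LIG3 at -1.03 ± 0.11. MBD4 did not follow the lower ones in HepG2, where it was higher at day 10. The list itself did not move alike there. MUTYH had means of 10.585 untreated and 11.33 at day 10, and UNG 11.50 untreated, 11.40 at day 10 and 12.23 at day 17. In SNU475 at day 31, where MBD4 was lowest, 4 repair genes were higher and 1 was lower, 29.4% against 12.8% of all (median 0.16). But with the values as deposited none was higher and 6 were lower (median -0.08, against -0.20 over all probes), and with median scaling 1 was higher and 3 were lower. OGG1, which removes oxidised guanine, read 0.63 ± 0.13 there. The SNU398 and SNU475 counts of these repair genes cross array sets, so set and treatment cannot be told apart in them. Markers of dividing cells were also lower in HepG2 and SNU398 at day 10, as given above. Their part in the counts of repair genes was not tested.

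Of the 3 DNA methyltransferases, the maintenance enzyme DNMT1 fell in HepG2 at day 10 by 0.59 ± 0.13 and the de novo enzyme DNMT3B by 0.71 ± 0.12, while DNMT3A, also a de novo enzyme, rose by 0.73 ± 0.15. In SNU398 at day 17 all 3 were higher, DNMT1 by 0.63 ± 0.13 and DNMT3A, not above background in untreated SNU398, at least 1.40-fold (adjusted p 0.00446). Of 7 other readers of methylated CpG measured, 1 was higher and 2 were lower in HepG2 at day 10, 42.9% against 31% of all, UHRF1, which brings DNMT1 to replicating DNA, at -2.40 ± 0.14. Of 12 NuRD subunits, 1 was higher and 6 were lower in SNU475 at day 56, 58.3% against 45.3% of all (median -0.33, against -0.05), including the helicases CHD3 (-0.92 ± 0.14) and CHD4 (-0.69 ± 0.12). In SNU398 at day 17, 3 were higher and none lower, a share of 25% below the 31.6% of all probes, with CHD4 at 0.94 ± 0.12. Of 6 partners of MBD1, 2 were higher and 2 lower in HepG2 at day 10, 66.7% against 31% of all. The histone methyltransferase SUV39H1 read -1.78 ± 0.13, and CHAF1A, a chromatin assembly subunit not above background at day 10, was at least 3.54-fold lower (adjusted p 5.27e-13). Of 12 measured genes of a list of makers and regulators of TET substrate and activity, 1 was higher and 6 were lower in SNU398 at day 10. That is 58.3% against 32.4% of all (median -0.32, against 0.01). The SNU398 and SNU475 counts of these lists cross array sets, so set and treatment cannot be told apart in them. Markers of dividing cells were also lower in HepG2 and SNU398 at day 10, and their part in these lists was not tested.

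The genes whose group means most resembled those of each member were found on its brightest probe over 17 group means with the mean of each line removed, and groups of a line share array sets and normalization. They were FDPS (r = 0.898) and FADS1 (0.877) for TET1, PSME4 (0.901) and SPPL2A (0.876) for TDG, INTS5 (0.903) and ASXL1 (0.895) for MBD1, PPP2R2D (0.918) and PGAM1 (0.911) for MBD2, and LEP (0.989) and GJC1 (0.986) for MBD4.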

How the data were processed

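Total RNA of 3 liver carcinoma lines was measured on 34 Illumina arrays, 2 for each of 17 line and day groups taken from the labels. The values used were linear probe intensities deposited by the authors for 47230 probes; the sources used here do not give how they were normalized, and the number of arrays limits the precision. A second deposited table, before normalization, names its 72 value columns by array barcode, which no label ties to a sample, so it was not used and no detection p-values or negative control probes were available; the planned filter on detection was replaced by a threshold from the values. Background was corrected by limma 3.58.1 (R 4.3.3) with its normal-exponential model (offset 50), arrays were quantile normalized together, and log2 was taken of the deposited intensities so treated. The background threshold, which both arrays of a group had to exceed, was 6.979: the values' mode (6.486) plus 1.645 times the spread below it (0.2994).

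Gene names came from the supplied probe annotation, updated through RefSeq (GRCh38.p14): 30113 probes had 1 symbol, 8 several and 17109 none, and 30074 of the first matched. The symbol MBD3 is also an older name of DPEP3, whose probes were not used. The 20974 kept probes with 1 symbol were fitted with a mean per group (lmFit, eBayes; 17 residual and 11 prior degrees of freedom), with limma's moderated two-sided p-values Benjamini-Hochberg adjusted within each of 30 comparisons at 0.05. The fit was tested on simulated data. For a bound ("at least"), the dimmer group was taken at its own mean or at the background threshold, whichever was higher.

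The members, the gene lists and the comparisons were chosen with earlier results of these data known. Named list genes are the called ones with the largest change, at most 3 per list and comparison, and resembling genes are the 2 with the highest Pearson r. Same-numbered replicates did not deviate together (r of deviations from -0.139 to 0.184 over pairs of groups), so the replicate number was no block. Alternatives were no background correction, the values as deposited, median scaling, no or a stricter filter on dim probes, 1 probe per gene, each line alone, the replicate block, and each array left out.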

Additional observations from a re-analysis of the deposited data

Results flagged for a closer look

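Among the member probes, 7 differences between lines in the mean change over days 3, 10, 17 and 24 passed limma's test of the difference itself. They were 2 of 10 probes for SNU398 minus HepG2 (33.5% of all tested probes), 3 for SNU475 minus HepG2 (23%) and 2 for SNU475 minus SNU398 (33.4%). The count of member calls was therefore not high beside all probes. MBD4 rose more in HepG2 than elsewhere: SNU398 minus HepG2 was -0.61 ± 0.15 (adjusted p 0.00215) and SNU475 minus HepG2 -0.87 ± 0.15 (6.89e-05). On MBD1, ILMN_1683595 differed between SNU475 and HepG2 by -0.73 ± 0.16 (0.000874) and between SNU475 and SNU398 by -0.84 ± 0.16 (0.000118). ILMN_2352580 of MBD1 differed by -0.63 ± 0.17 (0.00661) and -0.49 ± 0.17 (0.0231) in the same pairs, the first lost without untreated HepG2 replicate 2 or untreated SNU475 replicate 1 (up to 0.0631), the second without untreated SNU398 replicate 2 or untreated SNU475 replicate 1 (up to 0.173). MBD2 on ILMN_1750395 had a mean change of 0.15 in SNU398 and -0.35 in HepG2, a difference of 0.49 ± 0.18 (0.0374), lost without a filter on dim probes and without any of 8 single arrays (up to 0.236). SNU398 against its untreated cells, and SNU475 from day 10 on against its own, cross array sets, and the part of that in these mean changes cannot be told apart.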

How the results depend on the processing

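No called member change turned sign in any setting. Against untreated cells, 17 of 40 member results passed in HepG2, 16 of 40 in SNU398 and 8 of 60 in SNU475. Of all tested probes, 13.3% to 31% passed by day in HepG2, 17.9% to 32.4% in SNU398 and 3.19% to 45.3% in SNU475. With 1 probe per gene, which tests fewer probes, all 54 calls on the member probes still tested held and 1 was gained. That setting leaves 1 probe for each of 5 members, so it holds 150 member results in place of 300. Out of these fewer results, the counts were then 9 in HepG2, 9 in SNU398, 2 for adjacent days of HepG2 (5 with all probes) and 11 between untreated lines (23). With the values as deposited they were 21 in SNU475 and 11 for differences between lines (7), and median scaling gave 11 for the latter. As deposited, the median of all probes in SNU475 from day 10 on lay between -0.20 and -0.24 against untreated and the share of higher among all calls from 7.56% to 22.1% (45.1% to 56.7% with the main scaling). With median scaling that share was 69.2% to 78.3% in SNU398 (51.2% to 54.4%) and 28.9% to 36.7% in SNU475 from day 10 on, and the median of all probes in SNU475 at day 56 was -0.11. For differences between lines in the mean change (SNU398 minus HepG2, SNU475 minus HepG2, SNU475 minus SNU398) the share was 51.7%, 50.1% and 48.7%, against 66.8%, 37.5% and 26.6% with median scaling, whose medians were 0.11 in the first and -0.16 in the last, and 19.5% and 21.9% in the last 2 as deposited, with medians of -0.16 and -0.17. Leaving out 1 array gave 11 to 17 calls in HepG2 (11 without untreated replicate 2), 7 to 15 in SNU398 (7 without untreated replicate 2), 5 to 8 in SNU475 (5 without untreated replicate 1), and 21 to 24 between untreated lines. For adjacent days the ranges were 4 to 7 in HepG2, 6 to 10 in SNU398 and 7 to 10 in SNU475, and for differences between lines 5 to 9. With the replicate block, 94 of the 95 calls held and 1 was lost. Without a filter on dim probes 9 of the 95 were lost, and with each line fitted on its own 7 of 65 were lost and 3 gained. Median scaling lost 4 and gained 14, the values as deposited lost 2 and gained 25, and no background correction lost 1 and gained 8. The stricter filter on dim probes kept all 92 calls still tested and gained 14. As deposited, counts over all probes moved to 8182 from 3818 in SNU475 at day 10, 7704 from 2661 at day 17 and 7350 from 2682 at day 31. With each line alone 1583 calls from day 17 to 24 in HepG2 became 734, without background correction 99 from day 10 to day 17 in SNU475 became 194, and above background on all 34 arrays 669 in SNU475 at day 3 became 401, 9503 at day 56 became 6096, 8990 from day 31 to day 56 became 5874, and 11857, 11920 and 12260 between untreated lines became 7250, 7193 and 7592. Leaving out untreated replicate 1 of SNU475 took the counts over all probes to 334 from 669 at day 3, 2400 from 3818 at day 10, 1543 from 2661 at day 17 and 1474 from 2682 at day 31. In the same way HepG2 day 3 fell to 1703 from 2786 without untreated replicate 1, and SNU398 day 24 to 2134 from 3747 without untreated replicate 2. From day 17 to 24, counts became 680 in HepG2 and 833 from 1907 in SNU398, each without day 24 replicate 2, and 1110 from 2475 in SNU475 without day 17 replicate 2, and from day 10 to 17 in SNU475 21 without day 10 replicate 1. These are the lowest values, and 8 of these 10 counts moved by over 1.5 times without any 1 of their 4 arrays. Array sets could not be fitted as a block, since no group spans more than 1. The cause of these shifts was not tested.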

Other observations

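IFT122, a component of the intraflagellar transport machinery of cilia, starts 276 bases upstream of MBD4 on the opposite strand in the RefSeq annotation. Only genes on the strand opposite to a member were searched. Among those, IFT122 was the only gene found to start within 1000 bases of a member's start. Of its 3 kept probes, ILMN_1720724 was above background in 2 of 17 groups, untreated HepG2 and SNU475 at day 24. In HepG2 it passed as lower at day 17 (-0.60 ± 0.20, adjusted p 0.0299), where it was not above background, and did not pass on the other days. It is not read further here. In HepG2, where MBD4 was higher on each treated day, the IFT122 probes ILMN_1742379 and ILMN_2366177 passed on no day, and read -0.08 ± 0.15 and -0.17 ± 0.14 at day 3. At day 10 they read -0.36 ± 0.15 (adjusted p 0.0755) and -0.24 ± 0.14 (0.231). In SNU475 at day 31, where MBD4 was -1.22 ± 0.13 from untreated, they read 0.02 ± 0.15 and 0.07 ± 0.14, neither called. In SNU398 at day 17, MBD4 and 1 IFT122 probe were both higher: MBD4 by 0.42 ± 0.13 (adjusted p 0.0162), ILMN_1742379 by 0.66 ± 0.15 (0.00123), while ILMN_2366177 read 0.25 ± 0.14 (0.203). At day 24 ILMN_1742379 was higher by 0.56 ± 0.15 (0.0103), and at day 10 ILMN_2366177 was lower by -0.52 ± 0.14 (0.00583), both days on which MBD4 did not pass. From day 10 to day 17 of SNU398, within an array set, ILMN_1742379 rose by 0.76 ± 0.15 (0.000348) and ILMN_2366177 by 0.76 ± 0.14 (0.000171). The neighbour was looked up after the MBD4 values were seen.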
